A study of Mus musculus and Homo sapiens with 10 samples.

Results

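The genes described here are the cytosolic ribosomal protein genes of the mouse, read for DNA double-strand break ends in sorted enterocytes of the jejunum. They were taken from the RefSeq annotation of GRCm38.p6 by symbol alone, as protein-coding genes on chromosomes 1 to 19 named Rpl or Rps with a number (and an optional a, x or l), Rplp0 to Rplp2, or Rpsa. This gave 77 of the 20665 protein-coding genes on those chromosomes (21887 with X and Y): 44 of the large subunit, 30 of the small subunit and 3 of the ribosomal stalk. No break-end value entered the rule, though earlier results of these data were known when it was set.

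The study used in-suspension BLISS, in which break ends are blunted and joined to an adapter in mildly lysed cells and nuclei, amplified by in vitro transcription and sequenced. Enterocytes, the absorptive cells of the villus, came in 3 groups of 2 libraries, M1 and M2: negative, mid or high for Cd73, an ectonucleotidase encoded by Nt5e. Mouse strain, genotype, age, treatment and gate settings are not stated in the sources used here, nor is whether M1 and M2 are separate mice, so p-values measure the spread between libraries, which may be technical. The series' human TK6 libraries were not used.

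Each cytosolic ribosome has a large and a small subunit, built from ribosomal RNA and one copy of most ribosomal proteins, so cells make these proteins in matched and large amounts. Their genes are short and, in dividing and secretory tissues, among the most heavily transcribed of the genome. Their messages typically begin with a C followed by a run of pyrimidines, the 5′ terminal oligopyrimidine tract through which mTOR controls their translation. Many of their introns also encode small nucleolar RNAs, and their messages have left numerous processed pseudogenes in mammalian genomes.

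Libraries differed widely in depth. The Cd73 negative libraries held 13043514 and 12585228 nuclear break ends, the mid libraries 4757961 and 5160171, and the high libraries 1522615 and 1272771. Levels are therefore given as a density: break ends per kb per 1000000 nuclear break ends of the library. Gene borders, all bases within 1 kb of either end of a gene, of 12 enterocyte marker genes carried 1.06 to 1.40 in the 6 libraries against 0.901 to 1.33 over all genes. The corresponding values were 0.414 to 0.586 for 7 lymphocyte markers, 0.333 to 0.982 for 3 goblet, 0.159 to 0.265 for 3 Paneth, 0.711 to 1.14 for 3 enteroendocrine, 0.328 to 0.708 for 3 tuft and 0.491 to 0.620 for 4 stromal and endothelial markers. The enterocyte list lay above all genes in each library, and the other lists below, except for goblet markers in the second high library. Break ends are not a measure of expression, and the part of other cell types in the results below was not tested.

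A transcription start and promoter sequence were listed by RefSeq for 57 of the 77 genes. The start window holds the 500 bases before the start and the first 1000 bases from it. To show what lies at the starts with the most and the fewest break ends, 70 bases, 50 before and 20 from the start onward, are printed 5′ to 3′ along the gene for the 4 genes at the top of the start-window order and for the 4 at its foot. Capitals mark a C with at least 4 pyrimidines after it, beginning within 3 bases of the start, and the motifs CCGGAAG and GGGCGG on either strand. The sequences are from RefSeq, build GRCm38.p6, and were chosen after the densities had been seen.
Rpl13a, chr7:45128726-45128795, minus strand: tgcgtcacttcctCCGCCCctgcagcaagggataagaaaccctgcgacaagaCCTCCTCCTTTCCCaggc
Rpl7a, chr2:26910757-26910826, plus strand: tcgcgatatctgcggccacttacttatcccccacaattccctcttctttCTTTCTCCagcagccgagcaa
Rpl37, chr15:5116563-5116632, plus strand: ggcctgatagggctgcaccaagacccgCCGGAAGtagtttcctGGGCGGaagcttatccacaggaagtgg
Rps24, chr14:24490628-24490697, plus strand: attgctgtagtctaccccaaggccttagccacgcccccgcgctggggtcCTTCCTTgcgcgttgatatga
Rpl41, chr10:128549149-128549218, minus strand: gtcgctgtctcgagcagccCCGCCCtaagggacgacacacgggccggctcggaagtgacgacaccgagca
Rps9, chr7:3703991-3704060, plus strand: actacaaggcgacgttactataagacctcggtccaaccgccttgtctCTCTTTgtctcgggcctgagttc
Rpl32l, chr10:20208389-20208458, plus strand: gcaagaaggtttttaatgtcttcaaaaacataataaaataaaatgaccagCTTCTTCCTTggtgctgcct
Rpl10l, chr12:66284382-66284451, minus strand: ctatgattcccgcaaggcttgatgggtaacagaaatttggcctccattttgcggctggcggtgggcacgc

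The pyrimidine tract was found at 24 of the 57 starts (42.1%), against 11.5% of all 16457 protein-coding promoters on these chromosomes and 11.6% of those of 69 mitochondrial ribosomal protein genes. As the lines above show, it stood at Rpl13a, Rpl7a and Rps24 near the top of the order, but also at Rps9 and Rpl32l near the bottom. The 24 starts with a tract had a median start-window density of 2.97, and the 33 without one had 2.78. Over the whole 300 bases listed, CCGGAAG, the core of sites bound by ETS factors, occurred in 23 promoters (40.4% against 12.3% of all) and in 36.2% of the mitochondrial set. GGGCGG, the GC box, occurred in 32 (56.1% against 47.3%), and TATAAA in 4 (7.02% against 13.5%). AAGATGGC, a core of YY1 sites, occurred in 4 (7.02% against 3.23%). Each of these was searched on both strands. The median GC content was 57% for the members and 56.7% for all promoters. The matches describe the letters of these windows only.

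Break ends were concentrated at the starts of the ribosomal protein genes. Averaged over the 6 libraries, the 57 genes carried 0.523 break ends per kb per 1000000 between 2000 and 1000 bases upstream of the start, 3.45 in the last 500 bases before it and 3.73 in the first 500 bases of the gene. The density was 1.72 from 500 to 1000 bases, 0.714 in the next kb, and 0.524 beyond that, where it had returned to the upstream level. The first 500 bases thus held 7.11 ± 1.06 times the upstream density (SD over 6 libraries, range 5.75 to 8.41). By library the ratio was 8.03 and 7.43 for Cd73 negative, 5.75 and 8.41 for mid, and 6.96 and 6.05 for high cells. The 2 mid libraries held both the lowest and the highest value, so mid overlapped the other gates. Both high libraries lay below both negative ones, a difference that was not tested.

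Over all 16457 genes with a listed start, the same ratio was 3.64 ± 0.42 (SD, n = 6). The flanks were alike: 0.608 upstream for all genes and 0.523 for the members. The mitochondrial ribosomal protein genes, the family most similar in kind, were denser than the cytosolic ones in the bin of 200 bases before the start, at 6.48 against 4.79. Between 600 and 799 bases downstream the order was turned, with 1.29 for the mitochondrial and 1.86 for the cytosolic genes, against 1.43 for all genes.

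**Figure D1:**
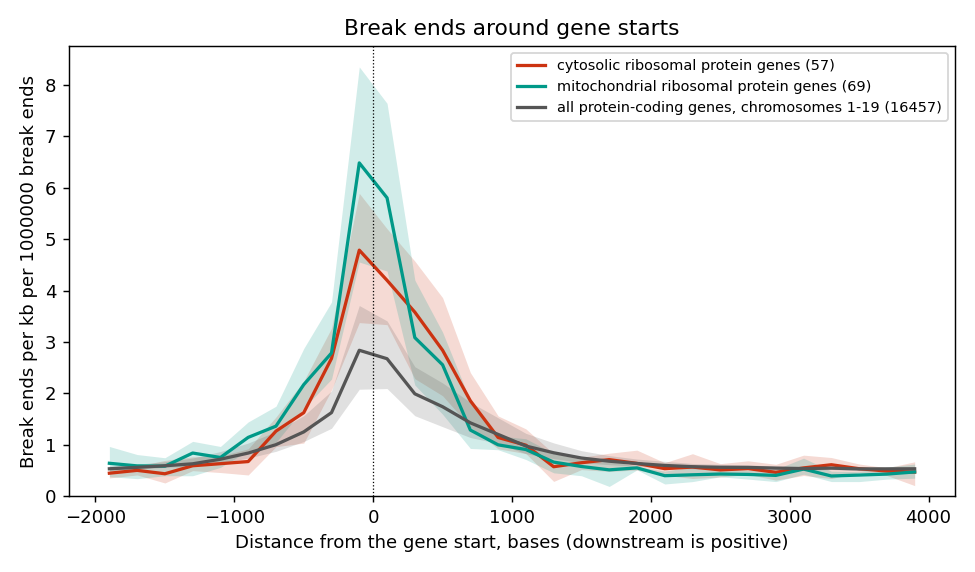
Break-end density (per kb per 1000000 break ends) against distance from the gene start in bases, in bins of 200 bases, for 57 cytosolic and 69 mitochondrial ribosomal protein genes and all 16457 genes. Lines are means of 6 libraries and bands run from the lowest to the highest library; the cytosolic line peaks at 4.79 just before the start and the line of all genes at 2.84.

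The far end of these genes showed no such peak. Within 1 kb of the start the 57 genes carried 2.46 ± 0.46 break ends per kb per 1000000, and within 1 kb of the end 0.558 ± 0.038 (SD, n = 6 libraries). The ratio of start to end was 4.38 and 5.18 in the Cd73 negative libraries, 3.66 and 4.94 in mid, and 4.85 and 3.46 in high. The same ratio over all genes lay between 2.53 and 3.33, below the members in each of the 6 libraries, and the ends of all genes carried 0.571. The mitochondrial ribosomal protein genes had a mean ratio of 4.19 ± 0.39, against 4.41 ± 0.71 for the members (SD, n = 6). They lay above the members in the first negative, first mid and second high libraries. In the second negative, second mid and first high libraries they lay below, so the contrast was not particular to the cytosolic genes. The start exceeded the end in 54 of the 57 cytosolic genes, a share that was not counted for the other sets. The exceptions were Rpl3l, Rpl41, which encodes the smallest protein of the ribosome, and Rps9.

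In the start window the 57 members together carried 1.57 ± 0.09 times the density of all genes (SD over 6 libraries, 1.48 to 1.73). By library this ratio was 1.53 and 1.54 for Cd73 negative, 1.48 and 1.57 for mid, and 1.73 and 1.59 for high cells. It exceeded 1 in every library. The median gene of the set had 2.83, against a median of 1.54 for all genes, and 46 of the 57 lay above that median, 25 above the upper quartile and 10 above the 90th percentile. The mitochondrial set reached 1.71 ± 0.05, so the cytosolic family did not stand above it.

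Over gene bodies the ratio to all genes was 2.41 ± 0.26 (SD, n = 6), with 2.50 and 2.79 for Cd73 negative, 2.05 and 2.52 for mid, and 2.36 and 2.23 for high cells. The members had a median length of 3.18 kb against 17.5 kb for all genes. The 8163 genes no longer than the longest member (11.8 kb) carried 1.70 ± 0.19 times the density of all genes in their bodies, below the members in each library. Their median length was 4.3 kb, above that of the members, so these sets were not matched in length. In their start windows the same 8163 genes, of which 6561 have a listed start, carried only 0.791 ± 0.006 times the density of all genes. At the borders the members' ratio was 1.31 ± 0.03 and that of the mitochondrial genes 1.51 ± 0.07.

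**Figure D2:**
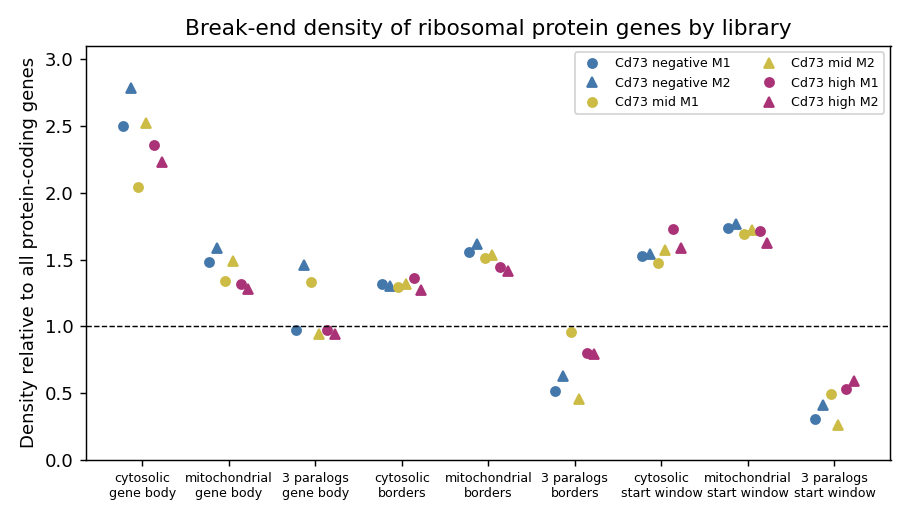
Break-end density of the cytosolic and the mitochondrial ribosomal protein genes and of 3 paralogs restricted to other tissues (Rpl3l, Rpl10l and Rpl39l), divided by that of all protein-coding genes (dashed line at 1), in gene bodies, borders and start windows. Each point is a library; the cytosolic genes lie at 2.05 to 2.79 in bodies, 1.27 to 1.36 at borders and 1.48 to 1.73 at starts.

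The large-subunit genes led the order of single genes. Rpl13a, which lies on chromosome 7 at 45125563 to 45128745 and whose protein also takes part in interferon-induced translational silencing, had start-window densities of 7.77 and 11.1 in the Cd73 negative, 8.55 and 8.01 in the mid, and 6.13 and 3.14 in the high libraries (210 break ends in the second negative library, 6 in the second high one). The high libraries lay below the other 4. In the 300 promoter bases around its start Rpl13a held 391 break ends over all libraries, a sum set mainly by the deep negative libraries, with 113 and 164 for negative, 53 and 47 for mid, and 10 and 4 for high cells. It had the most of any member in each library but the second high one, where Rpl37 led with 9. The 70 bases printed above held only 16 of the 391. Rpl7a had 7.36 and 8.0 for negative, 4.62 and 7.36 for mid, and 9.63 and 4.71 for high cells, and its gates overlapped. The 300 promoter bases of Rpl7a held 66, so most of its break ends lay outside them. The start of Med22, a gene on the opposite strand, lies within 1 kb of the start of Rpl7a. How many of the break ends counted for Rpl7a lie at the Med22 start was not tested.

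Rpl37 had a start-window density of 5.93 and 6.83 for negative, 4.20 and 5.69 for mid, and 7.44 and 5.24 for high cells. Rpl10a, with a mean of 5.16 at the start, had the highest body density of all members, 3.11. Rpl18 had a mean of 5.45 at the start, with 6.59 and 7.68 in negative against 3.50 and 4.71 in high. Of the small subunit only Rps24, which when mutated in humans causes Diamond-Blackfan anaemia, reached this range, at 7.10 and 7.26 for negative, 4.62 and 7.36 for mid, and 4.38 and 2.62 for high cells. In Rps24 and Rpl18, as in Rpl13a, both high libraries lay below both negative ones. How many genes show such an order was not counted. Over the 51 members tested in this window, the edgeR median log2 fold change of high against negative was 0.12, with 31 above 0. The 22 small-subunit genes with a start had a median of 2.88 and the 33 large-subunit genes 2.78, and their ranges overlapped, from 0.689 to 5.56 and from 0.342 to 7.45.

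**Figure D3:**
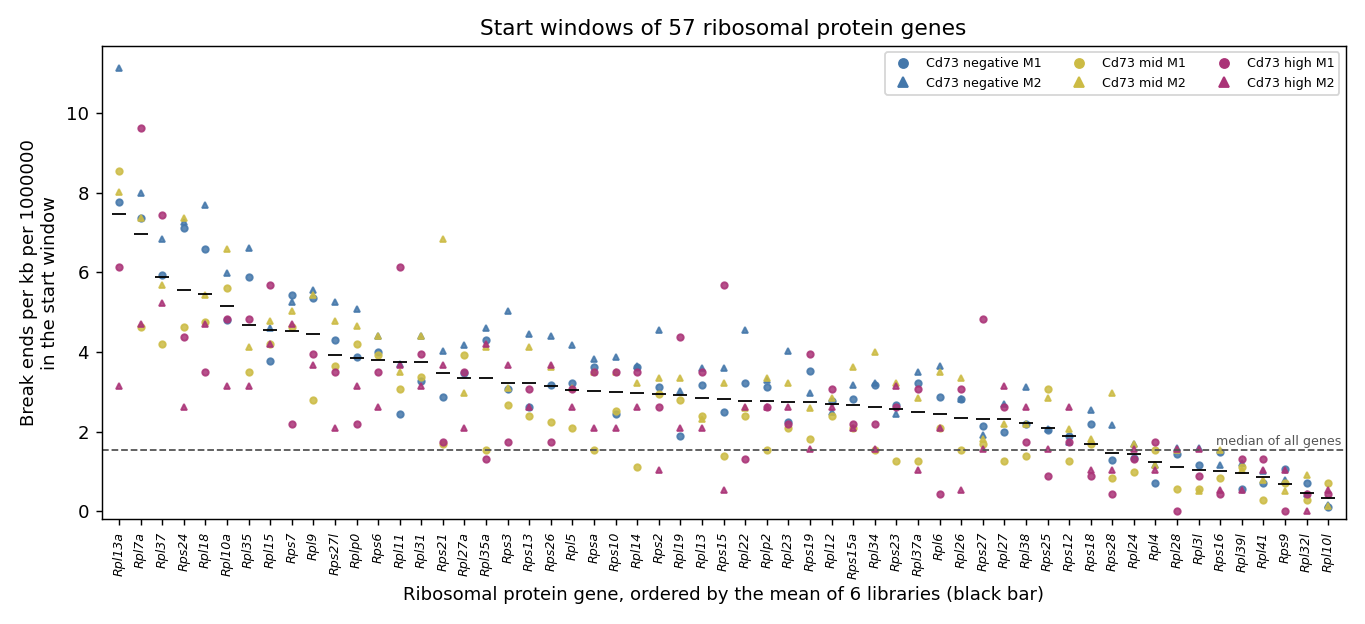
Start-window density (break ends per kb per 1000000) of the 57 ribosomal protein genes with a listed start, ordered by the mean of 6 libraries (black bars), with a point for each library. The order runs from Rpl13a at 7.45 to Rpl10l at 0.342, and 46 means lie above the median of all genes, 1.54 (dashed).

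The genes at the foot of the order included paralogs, some known for use outside the intestine. Rpl10l, a retrogene of X-linked Rpl10 that acts in the testis, had start-window densities of 0.102 and 0.159 for Cd73 negative, 0.701 and 0.129 for mid, and 0.438 and 0.524 for high cells, from at most 5 break ends in a library. Its body held 1 break end in all 6 libraries together. Rpl32l, named after Rpl32, had a mean of 0.460. Rpl39l, another testis paralog, had a mean of 0.962, and Rpl3l, expressed in heart and skeletal muscle, 1.05. Together the start windows of Rpl10l, Rpl39l and Rpl3l had 0.260 to 0.586 times the density of all genes, below 1 in each library, while the members as a whole were above 1. Their bodies, at 0.945 to 1.46 times all genes, were not uniformly low.

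Some broadly used ribosomal protein genes were also low. Rps9, a small-subunit protein placed early in assembly, had a mean of 0.689 and no break end in the start window in the first high library. For Rpl41 the start-window mean was 0.856 and for Rps16 it was 1.0. Rpl3, the broadly used counterpart of Rpl3l, has no listed start, and its border density, 0.768, was close to the 0.886 of Rpl3l. With 1.51 at the borders Rps27 exceeded its paralog Rps27l, a p53 target, which had 0.649, but in the start window the order was turned, with 2.32 for Rps27 and 3.93 for Rps27l.

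The borders are drawn at the outer ends of the RefSeq gene, and in 5 members, Rpl18, Rpl19, Rpl22, Rps2 and Rps27l, the listed start lies more than 1 kb inside. Rpl22, Rpl10l, Rpl17 and Rps2 had the lowest border means, 0.341, 0.354, 0.385 and 0.465. Of these, Rpl22 and Rps2 had start-window means of 2.78 and 2.94, both near the median of the set. Rpl10l was low in both windows, and Rpl17 has no listed start.

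**Figure D4:**
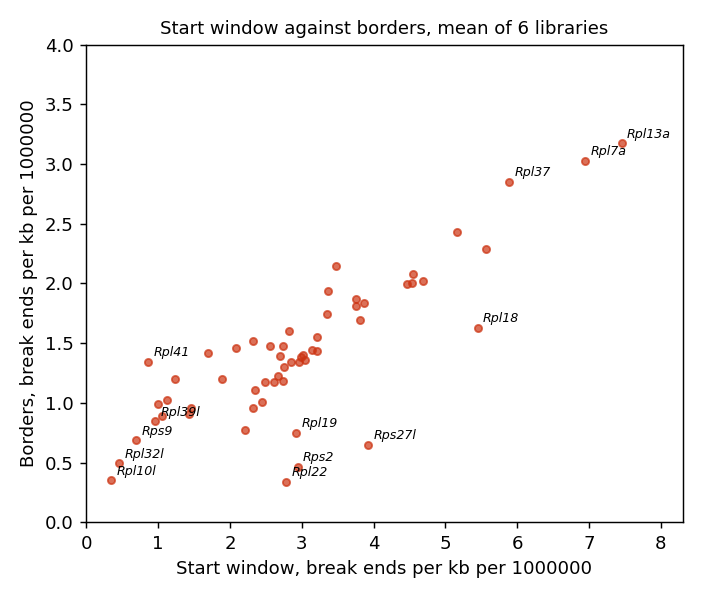
Border density against start-window density (break ends per kb per 1000000, mean of 6 libraries) for 57 ribosomal protein genes. Rps27l, Rps2, Rpl22, Rpl19 and Rpl18 fall below the others at their start-window value, and Rpl13a, Rpl7a and Rpl37 are the highest on both axes.

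The highest border means were those of Rpl13a (3.17), Rpl7a (3.03), Rpl37 (2.85), Rpl10a (2.43), Rps14 (2.33) and Rps24 (2.29). The stalk genes, whose proteins recruit translation factors, had 1.83 (Rplp0), 1.79 (Rplp1) and 1.30 (Rplp2). Rpsa, which also serves as a laminin receptor, had 1.40, and Rps27a, made as a fusion with ubiquitin, 1.36. Both lie near the median of the members, 1.36. Neighbours in the border order often exchanged places between libraries. Spearman's rho of the border density over the 77 genes was 0.893 between the 2 negative, 0.715 between the 2 mid and 0.316 between the 2 high libraries, a description over genes that share a library and its depth. The median border count was 75 and 81 in the negative, 20 and 31 in the mid and 7 and 6 in the high libraries, so single genes are not ordered reliably in the high gate.

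Break ends at these genes were often stacked on single positions. Within 1 kb of the members, the share of break ends at positions with more than 1 was 50.1% and 53.9% for the negative, 28.5% and 37.9% for the mid, and 21.7% and 9.35% for the high libraries. The same shares over the whole nuclear genome were 25.5% and 26.2%, 12.8% and 16.6%, and 6.32% and 6.38%, which also fell with depth. The most break ends on a single position were 34 in the first negative library (Rpl7a and Rpl8) and 41 in the second (Rps26). Whether a count is of unique molecules or of reads is not stated. With every position counted once, the ratio to all genes was 2.05 in bodies, 1.25 at borders and 1.48 at starts, and the first 500 bases held 5.36 times the upstream density.

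The next question was whether the ribosomal protein genes differed between the Cd73 gates. No member passed in any comparison. In edgeR's quasi-likelihood test, adjusted by Benjamini-Hochberg over all genes tested, 0 of 69 members were called over bodies in high against negative, where 0.00562% of 17809 genes were. Over bodies with 1 kb on each side 0 of 75 were called (0.00541% of 18484 genes), and over borders 0 of 73 (0% of 16222 genes). In mid against negative and in high against mid the counts were again 0 in all windows, as they were for all genes (0%). DESeq2 also called 0 members in each comparison, where it called 0.00562%, 0.0162% and 0% of all genes in high against negative and 0% in the others. The filter on low counts removed Rpl10l, Rpl15, Rpl28, Rpl32l, Rpl41, Rps27, Rps28 and Rps9 over bodies, Rpl10l and Rpl32l with 1 kb added, and Rpl10l, Rpl22, Rpl32l and Rps2 over borders.

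At an unadjusted p under 0.05, high against negative gave 5 of 69 members over bodies (7.25%, against 8.75% of all genes), 11 of 75 with 1 kb on each side (14.7% against 9.12%) and 4 of 73 over borders (5.48% against 6.21%). All 5 in bodies, 10 of the 11 with flanks and 3 of the 4 over borders were lower in the high gate. Of all genes at that level, 732 of 1558, 811 of 1685 and 487 of 1008 were lower. DESeq2 gave 2 of 69, 1 of 75 and 2 of 73 members at that level, against 703 of 17809, 812 of 18484 and 453 of 16222 genes. The raised share of members with 1 kb on each side in edgeR was thus not seen in DESeq2. In mid against negative edgeR gave 3, 3 and 2 members (background 3.16%, 3.44% and 5.0%), and in high against mid 0, 1 and 4 (background 4.51%, 4.25% and 4.8%).

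Over the members tested, the fold changes scattered around a value just below 0. The median log2 fold change of high against negative was -0.08 over bodies (41 of 69 below 0), -0.23 with 1 kb on each side (48 of 75 below 0) and -0.03 over borders (37 of 73 below 0). Over all genes tested the medians were 0.00, -0.01 and 0.00. Counting each position once turned all 3 above 0, to 0.11, 0.01 and 0.04. That setting depends on depth: stacked positions held 50.1% and 53.9% of the members' break ends in the negative libraries. In the high libraries they held 21.7% and 9.35%. Counting once thus lowers the negative counts more, so it cannot settle the direction. Short genes as a whole had lower values in this contrast: the 4453 shortest genes tested had a median of -0.20 over bodies with 66.2% below 0, and 68 of the 69 members belong to it. In the start windows alone, tested after the profile had been seen, the median of 51 members was 0.12, with 31 above 0, and edgeR called 0 of these members and 0% of the 9752 genes tested (4 members and 6.16% of genes at an unadjusted p under 0.05).

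For mid against negative the medians were -0.21, -0.14 and -0.02, and for high against mid -0.10, -0.07 and 0.10. Counted once, with the same dependence on depth, the first 3 became -0.02, 0.04 and 0.04. The high against mid values became 0.14, -0.02 and 0.03. Without the second mid library high against mid gave 0.16, 0.10 and 0.10. Without the first high library its border value was -0.11, and without the second high library -0.05, so the high against mid medians have no settled direction. The mitochondrial ribosomal protein genes had -0.31, -0.33 and -0.21 in high against negative, with 0 called. The median standard error of a member's log2 fold change was 0.49 over bodies and 0.43 over borders in that comparison, so for a typical member a 2-fold change lies at about 2 standard errors. After adjustment over all genes even fitted changes of about 3 standard errors, such as that of Rps18 described next, were not called. The absence of a call therefore does not show that a member was unchanged.

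**Figure D5:**
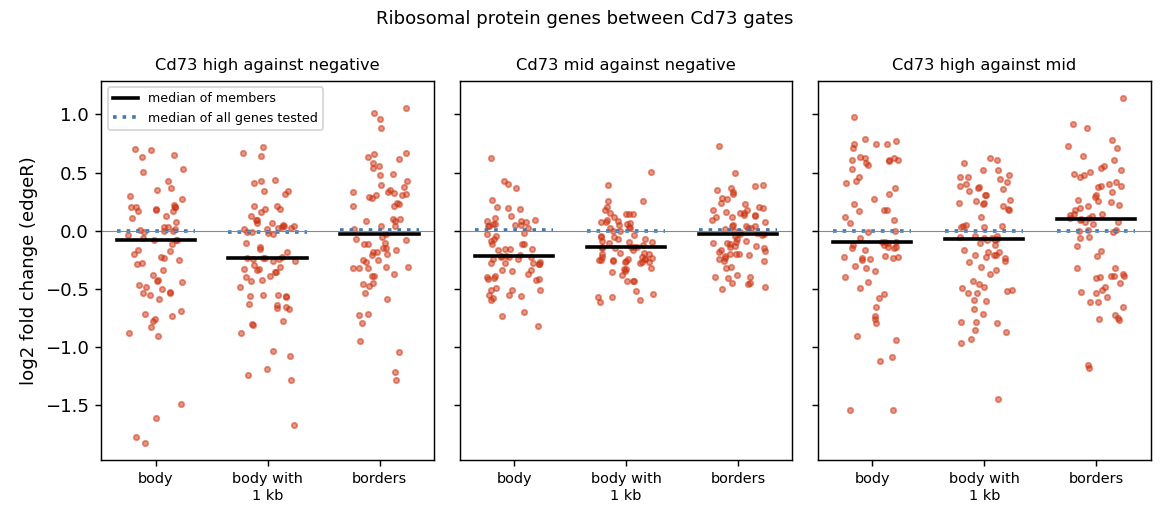
The log2 fold change (edgeR) of each ribosomal protein gene tested, in 3 comparisons of Cd73 gates and 3 windows, with the median of the members (black) and of all genes tested (blue, dotted). Every point is a gene that did not pass the adjusted test; the lowest is Rps18 over bodies, high against negative, at -1.82.

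The members with the smallest p are named here by rule, and none passed the adjusted test. As they were picked on high against negative, a gap between those libraries follows from the choice and is not separate support. Rpl8, a large-subunit protein near the peptidyl transferase centre, had 64 and 90 body break ends in the negative, 16 and 25 in the mid, and 1 and 4 in the high libraries. Scaled to depth (CPM, counts per 1000000 of the library's scaled sum over that window) these were 9.71 and 13.5, 6.95 and 9.41, and 1.37 and 6.69, and the high libraries lay below the other 4. The log2 fold change of high against negative was -1.61 (SE 0.59, edgeR adjusted p = 0.394), with -0.80 without the first high library and -3.06 without the second.

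Rps18 had the smallest adjusted p of any member, 0.323, over its body with 1 kb on each side (log2 fold change -1.67, SE 0.49, edgeR). There it had 14.8 and 16.6 CPM for negative, 14.2 and 12.9 for mid, and 3.82 and 6.25 for high cells. Its body alone held 39 and 33, 13 and 9, and 0 and 2 break ends. With the libraries of each gate pooled, the ratio of high to negative was 0.255 (exact 95% interval 0.030 to 0.954, counting error only). Such an interval leaves out the spread between libraries and takes stacked break ends as independent. Without the first high library, the one at 0, the log2 fold change over the body was -0.70. Rpl29 gave -1.49 (SE 0.55, edgeR adjusted p = 0.394) over its body. Rpl22 gave -0.69 (SE 0.33, edgeR adjusted p = 0.550), with -0.14 without the first high library, which had 9.58 CPM, and -1.42 without the second, which had 23.4. Rpl26, which binds the p53 message, held 1 and 2 body break ends in the high libraries against 55 and 49 in negative, a ratio of 0.264 (0.054 to 0.795, the same interval), but over borders its log2 fold change was -0.03.

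In the other direction Rpl11, which binds and restrains Mdm2 when ribosome assembly fails, had border values of 65.4 and 70.2 CPM for negative, 92.9 and 64.4 for mid, and 157 and 101 for high cells. Both high libraries lay above the rest, a gap that the choice by smallest p favours. The log2 fold change was 0.96 (SE 0.34, edgeR adjusted p = 0.760), and over the body it was 0.69 (SE 0.37, edgeR adjusted p = 0.599). Without the first high library these were 0.51 and 0.37. The pooled border ratio of high to negative for Rpl11 was 1.49 (0.954 to 2.25, the same kind of interval as for Rps18). Over bodies the other smallest p-values in this direction belonged to Rpl36 (0.65), Rps12 (0.71), Rpl4 (0.63) and Rps15 (0.51), and over borders to Rps27 (0.89) and Rpl39l (1.06), all given as log2 fold changes, and their edgeR adjusted p ran from 0.632 to 0.821. Single libraries moved each of them by over 1.5 times. Without the first high library Rps15 was -0.45, Rps27 0.02 and Rpl39l 0.19, and Rpl36 was 1.01. Without the second high library Rpl36 was 0.24, Rps12 0.39, Rpl4 0.32 and Rps15 0.99. Of the negative libraries, leaving out the first gave 0.41 for Rpl4 and 0.27 for Rps15, and leaving out the second gave 0.43 for Rps12, 0.78 for Rps15 and 0.58 for Rps27.

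Rpl13a, the densest member, had a border CPM of 155 and 182 for negative, 197 and 156 for mid, and 131 and 67.2 for high cells. Its log2 fold change of high against negative was -0.71 over borders (SE 0.33, edgeR adjusted p = 0.786) and 0.17 over the body, where its high libraries held 5 and 4 break ends. The border value was -1.39 without the first high library and -0.39 without the second. Rpl6 gave -1.21 over borders, from 1 and 4 break ends in the high libraries, with -0.42 without the first of these and -2.71 without the second. Rps18 gave -1.29 over borders.

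Of the other genes of the pathway none passed in this comparison. Of 15 translation genes known for a pyrimidine tract and 26 ribosome biogenesis genes, 0 were called in high against negative over bodies by edgeR, and the medians of their log2 fold changes were 0.08 and -0.06. Their border densities, like those of the members, lay above that of all genes in every library: 1.44 to 2.32 for the first and 1.15 to 1.93 for the second.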

How the data were processed

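The deposited files list, for each library, a position and a count of break ends; reads were aligned with BWA to GRCm38 per the submitters' processing notes. Software versions, read filters and the treatment of duplicates are not stated in the sources used here, and the deposited counts carry no strand and are not normalized. Nuclear counts (chromosomes 1 to 19, X and Y) were summed over gene bodies, bodies with 1 kb on each side, borders and start windows; intervals cover counting error only. Reads from multi-copy sequence could be placed on a member or on a pseudogene (307 are named for 58 members), which was not tested. Tests used edgeR 4.0.16 in R 4.3.3 (TMM, filterByExpr, quasi-likelihood, 1 fit of 3 groups over all genes), with a call at an adjusted p under 0.05, and DESeq2 1.42.0. SEs are the fold change divided by the square root of F. The functions were tested on simulated data. Members and lists were chosen with earlier results of these data known; the start window, the set of genes up to the longest member's length and the printed sequences were chosen after values had been seen. Named genes were the 5 (bodies) or 3 (borders) smallest p in each direction in high against negative, the 6 highest and 4 lowest border means, paralogs with their counterparts, the stalk genes, Rpsa and Rps27a; others were named after their values were seen. The label numbers M1 and M2 were not shown to pair libraries. Sums and plots were made with matplotlib 3.10.9, scipy 1.17.1, pandas 2.3.3 and numpy 2.4.6 under Python 3.11.15. A further list of ribosomal protein genes outside the symbol rule is not reported here.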

Additional observations from a re-analysis of the deposited data

How the results depend on the processing

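No alternative gave a called ribosomal protein gene: the count was 0 in all 144 refits (18 settings), with a smallest adjusted p of 0.129 against 0.323 in the main analysis, and 0 when each library was left out. With M1 and M2 as a replicate block 0 members were called, while calls over all genes in high against negative went from 1 to 44 over bodies; same-numbered libraries deviated together between negative and mid (correlation 0.35) but not between negative and high (-0.05) or mid and high (-0.05). The median log2 fold change of high against negative moved over bodies from -0.08 to 0.11 (each position counted once, which depends on depth) and 0.01 (gene length offset). Thinned to the shallowest library it was -0.55, over only the 11 members still tested, against 69 in the main fit. With 1 kb on each side it moved from -0.23 to 0.0115 (counted once) and -0.091 (gene length offset). Over borders it moved from -0.03 to -0.10 (no filter), -0.15 (gene length offset, where the median of all genes was -0.12), 0.12 (start window alone, chosen after seeing the data), and to 0.04 with positions counted once or borders of 500 bases and 0.03 without overlapping genes. Without single libraries it ran from -0.17 to -0.03, -0.26 to -0.16 and -0.08 to -0.04. The density ratio to all genes moved with each position counted once from 2.41 to 2.05 (bodies), 1.31 to 1.25 (borders) and 1.57 to 1.48 (starts), the profile from 7.11 to 5.36, and the border ratio to 1.37 without overlapping genes. Without single libraries these ran from 2.33 to 2.48, 1.30 to 1.32, 1.54 to 1.59 and 6.85 to 7.38. Of 242 alternatives for named genes 1 turned direction, Rps15 over bodies without the first high library (0.51 to -0.45; 0.99 without the second). The cause was not tested. Depth limits the high gate most.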

Other observations

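Small nucleolar RNA genes lie inside 27 of the 77 members (56 genes). These 27 had a median border density of 1.34 break ends per kb per 1000000, and the other 50 had 1.39. The 12 members with the start of an opposite-strand gene within 1 kb of their own had a median start-window density of 2.96, and the other 45 with a listed start had 2.76. Pseudogenes named after a member exist for 58 members, with 24 for Rpl31 alone. The 42 of these with a listed start had a median start-window density of 2.95, and the 15 members with no named pseudogene and a listed start had 1.43. The last group includes the low paralogs Rpl3l and Rpl10l, and how reads of near-identical sequence were placed was not tested.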
